A study of Mus musculus with 3 samples.

Results

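The comparison described here sets mouse epiblast stem cells (EpiSCs) treated with the tankyrase inhibitor IWR1 against untreated EpiSCs. It rests on 2 of the 3 RNA-seq libraries of the study, 1 per group; without replicates no difference could be tested and no p-value is given. The tables of the 2 libraries listed 16594 of the 17209 genes listed in the series, and 14749 of these were in both. The genes compared were the 12955 that averaged at least 1 CPM (the usual unit of counts scaled to library size) across the 3 libraries. Cells of strain 129 at passage 1 had been grown on gelatin in serum with both IWR1 and the kinase inhibitor Y27 (Y27632 in the series title). The untreated library (NT) came from cells from which both inhibitors had been taken away overnight. The cells of the IWR1 library received IWR1 at 2 µM for 12 h, and those of a further library received Y27 for 12 h, at 0.5 µM as labelled. The labels do not give whether treated cells also went without inhibitors beforehand, nor whether Y27 was present along with IWR1, so treatment with IWR1 and withdrawal in NT cannot be told apart. In bulk RNA, fewer cells of a type and less RNA per cell cannot be told apart either.

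IWR1 acts on tankyrases, enzymes that mark the scaffold protein Axin for destruction. When tankyrases are inhibited, Axin persists, the complex that degrades beta-catenin is more active, and less beta-catenin reaches the TCF/LEF transcription factors at Wnt target genes. EpiSCs correspond to the epiblast after implantation, in which Wnt signalling drives cells towards the primitive streak and mesoderm. Tankyrases also act on proteins outside the Wnt pathway, among them proteins of telomeres and of the mitotic spindle.

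Library totals were 5767550 estimated reads for NT, 5607725 for IWR1 and 5459332 for Y27, and the genes compared had medians of 159 reads in NT and 161 in IWR1. Levels are CPM, and differences are log2((CPM + 1)/(CPM + 1)), IWR1 over NT, which understates the differences of low genes. The 2-fold threshold applies to this measure, so a gene whose CPM ratio is slightly above 2 can lie inside it. The range in brackets after a fold is its exact conditional binomial 95% interval, which covers counting error only. The transcripts of the inhibitor's targets were not lower: Tnks was at 77.8 CPM in NT, 115 CPM in IWR1 and 132 CPM in Y27, and Tnks2 at 513, 645 and 652 CPM. Since the inhibitor acts on the proteins, these levels are no check of the treatment. EpiSC markers were detected in all 3 libraries. Pou5f1, the central pluripotency factor, was at 1463 CPM in NT, 1318 CPM in IWR1 and 1163 CPM in Y27, and Fgf5, a growth factor of the primed epiblast, was at 20.7, 68.1 and 29.9 CPM, both on partly fractional counts. The sources used here do not give how fractional counts arose, and values that rest on them are treated as less certain.

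Of the genes compared, 587 (4.53%) differed at least 2-fold between IWR1 and NT. In IWR1, 295 (2.28%) were higher and 292 (2.25%) lower by that measure, and the median log2 difference was 0.00. These are differences between 2 libraries, and low genes are frequent among them. Both levels were under 10 CPM for 134 of the higher and 147 of the lower genes. Differences also followed the length and GC content of the transcripts. With that trend removed by a fitted surface, 155 genes (1.21% of the 12847 with a GC value) were at least 2-fold higher and 285 (2.22%) lower, of which 127 and 237 were among those above. Genes of the Wnt pathway and its targets (13 of 44 at least 2-fold lower), of the streak and nascent mesoderm (11 of 18 lower), of the Hox clusters and of pluripotency were set aside, and the genes named below are those of the rest with the largest differences or the most reads, and members of functional lists.

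**Figure D1:**
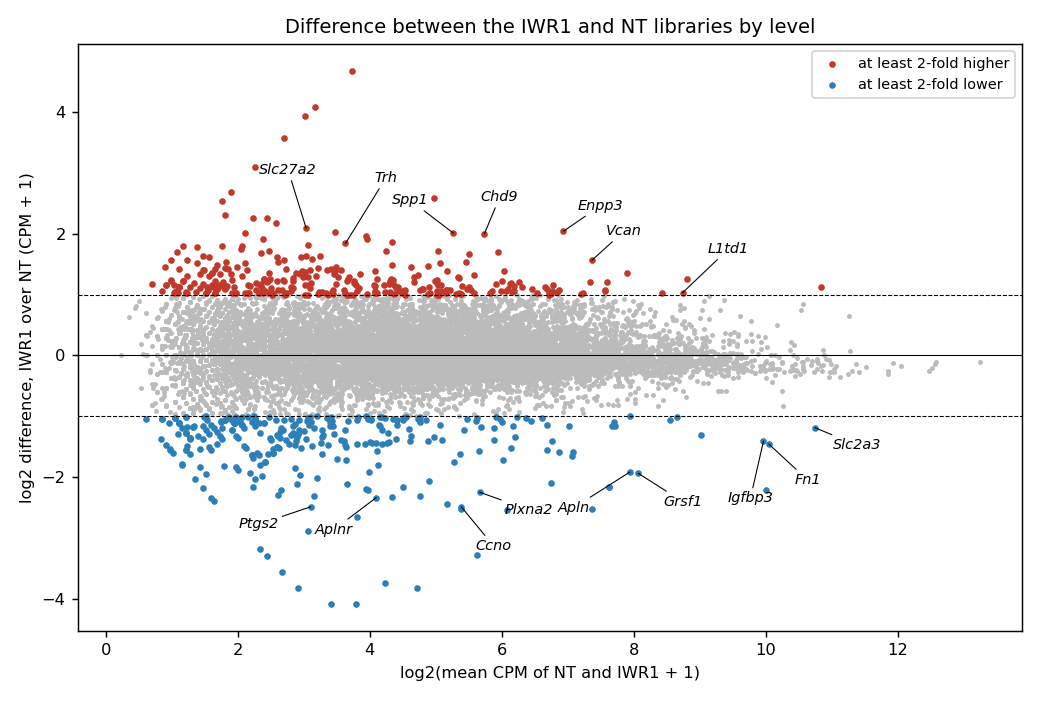
Log2 difference between the IWR1 and NT libraries (vertical axis) against the mean level of each gene (horizontal axis, log2 of mean CPM + 1). Each point is 1 of 12955 genes, dashed lines mark 2-fold, and red and blue points lie past it; Slc2a3, Fn1 and Igfbp3 are the labelled genes lower at the highest levels, and Enpp3 and Vcan lie well above the line among the genes higher in IWR1.

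The promoters of the named genes were searched for the core of the TCF/LEF motif, CTTTGAT, on either strand (ATCAAAG on the other). Promoters were looked up for 50 genes, those named by size or level together with Axin2 and Sp5. Of these, 38 had an entry in the RefSeq promoter table (GRCm38.p6, 250 bases before to 50 bases after the start). At least 4 of the 38 held a match, since part of the genome was left out when their matches were counted. These 4 genes are shown because their promoters hold the letters of the motif. Whether the motif plays a part in their levels was not tested. Sp5 is a known Wnt target, Tgm1 encodes a transglutaminase, Amotl2 an angiomotin family protein and Tnfrsf19 a receptor of the tumour necrosis factor family. The windows lie at chr2:70474673-70474972 (plus strand), chr14:55713443-55713742 (minus), chr9:102717554-102717853 (plus) and chr14:61037938-61038237 (minus), and are printed 5′ to 3′ on the gene's strand with the match in capitals.
Sp5: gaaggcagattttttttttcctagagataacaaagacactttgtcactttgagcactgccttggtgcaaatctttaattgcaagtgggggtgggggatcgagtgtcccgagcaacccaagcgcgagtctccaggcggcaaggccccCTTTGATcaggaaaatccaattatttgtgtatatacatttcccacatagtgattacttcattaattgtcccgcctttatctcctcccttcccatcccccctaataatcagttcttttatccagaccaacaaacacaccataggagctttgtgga
Tgm1: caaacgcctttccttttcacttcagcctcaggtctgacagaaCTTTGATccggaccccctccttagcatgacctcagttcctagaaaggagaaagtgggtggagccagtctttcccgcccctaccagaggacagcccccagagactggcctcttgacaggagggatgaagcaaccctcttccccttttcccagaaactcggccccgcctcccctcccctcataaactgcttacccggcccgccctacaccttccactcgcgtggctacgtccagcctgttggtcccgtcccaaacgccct
Amotl2: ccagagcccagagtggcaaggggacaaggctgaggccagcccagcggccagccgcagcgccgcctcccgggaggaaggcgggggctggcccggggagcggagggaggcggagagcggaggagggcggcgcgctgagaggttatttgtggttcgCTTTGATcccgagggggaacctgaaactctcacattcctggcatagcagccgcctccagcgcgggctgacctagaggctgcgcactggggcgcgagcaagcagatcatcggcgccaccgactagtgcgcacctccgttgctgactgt
Tnfrsf19: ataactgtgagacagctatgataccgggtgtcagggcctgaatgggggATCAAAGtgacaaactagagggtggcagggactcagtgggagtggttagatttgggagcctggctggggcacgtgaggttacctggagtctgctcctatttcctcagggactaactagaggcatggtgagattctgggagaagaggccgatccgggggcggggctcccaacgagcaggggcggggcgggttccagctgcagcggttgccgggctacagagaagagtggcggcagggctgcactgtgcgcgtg
The match starts at base 147 of the window in Sp5, 43 in Tgm1, 154 in Amotl2 and 49 in Tnfrsf19, where it is on the other strand. Sp5 was at 281 CPM in NT, 47.9 CPM in IWR1 and 218 CPM in Y27, on partly fractional counts. Across the table the motif was in 13 of 281 windows (4.63%) of genes at least 2-fold lower and in 11 of 282 (3.9%) of genes at least 2-fold higher. It was in 319 of 13158 windows (2.42%) of all genes compared and in 3.73% of all 32851 windows in the table. The shares of the lower and the higher genes thus lay close together, both above that of the genes compared. A match is a description of the letters and not of a bound site.

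The lower genes named by size or level include Apln and Aplnr, a peptide and its G protein-coupled receptor, which act in the migration of early mesoderm and in vessel growth. Apln, the peptide, was at 387 CPM in NT, 102 CPM in IWR1 and 277 CPM in Y27, 3.8-fold lower in IWR1 than in NT (3.47 to 4.18). Aplnr, its receptor, was at 27.6, 4.64 and 31.5 CPM in the same order, 5.94-fold lower (3.91 to 9.38). For both genes the IWR1 library was low and the NT and Y27 libraries were high. Apela, the other ligand of the receptor, which was looked up after these values were seen, was at 22.6 CPM in NT, 32.2 CPM in IWR1 and 21.1 CPM in Y27. It was thus above NT in IWR1, unlike the receptor and the first ligand.

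Genes that guide migrating cells and growing axons lay on both sides, a few of them far below NT. Plxna2, a plexin that receives semaphorin signals, was at 82.8 CPM in NT, 16.6 CPM in IWR1 and 136 CPM in Y27, 4.98-fold lower (3.98 to 6.29). Slit2, a secreted ligand of Robo receptors, was at 28.5, 12.3 and 23.8 CPM, 2.31-fold lower (1.73 to 3.11). Of 43 axon guidance genes compared, 5 (11.6%, against 2.25% of all genes compared) were at least 2-fold lower and 0 higher. Of the 5, Plxna2 and Slit2 reached 5 CPM in NT or IWR1, and the rest were below that level in both libraries. The list's median was -0.09, with 20 members above NT and 23 below. The Eph receptors and ephrins, which sort neighbouring cells by contact, were lower more evenly, with a median of -0.40 over 18 genes and 13 of them below NT. Efnb1, a membrane-bound ephrin, was at 25.7 CPM in NT, 8.75 CPM in IWR1 and 13.6 CPM in Y27, 2.93-fold lower (2.11 to 4.14). Efna1 was at 9.02, 2.68 and 10 CPM, and the receptor Ephb6 at 9.73, 3.39 and 10.4 CPM. In Efnb1 the Y27 library lay between the other two, whereas in Efna1 and Ephb6 it was as high as NT. Epha2, a further receptor, was at 232, 131 and 107 CPM, lowest in Y27.

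Among growth factor receptors, Pdgfrb, which binds platelet-derived growth factor and marks mesenchyme, was at 13.8 CPM in NT, 1.97 CPM in IWR1 and 12 CPM in Y27, 7.02-fold lower (3.72 to 14.6). Ptk7, a pseudokinase receptor of planar cell polarity, was at 808, 540 and 765 CPM, 1.5-fold lower (1.43 to 1.57), whereas Met, the receptor of hepatocyte growth factor, was at 10.1, 17.3 and 17.2 CPM. Of 22 receptor tyrosine kinases compared, 3 (13.6%, against 2.25% of all genes compared) were at least 2-fold lower and 0 higher, with a median of -0.23. Of the 3, Pdgfrb alone reached 5 CPM in NT or IWR1. In the tumour necrosis factor family, the ligand Tnfsf9 was at 32.7 CPM in NT, 5.72 CPM in IWR1 and 24.7 CPM in Y27, 5.73-fold lower (3.92 to 8.61). Tnfrsf19 was at 284, 132 and 288 CPM, 2.15-fold lower (1.97 to 2.35). Each of Pdgfrb, Tnfsf9 and Tnfrsf19 was low in IWR1 alone.

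Several enzymes were among the genes named. Ptgs2, the inducible cyclooxygenase of prostaglandin synthesis, was at 13.6 CPM in NT, 1.61 CPM in IWR1 and 15.6 CPM in Y27, 8.47-fold lower (4.24 to 19.2) on 9 reads in IWR1. Ptgs1, the other cyclooxygenase, chosen after its values were seen, was at 18.2, 4.82 and 25.6 CPM, 3.78-fold lower (2.45 to 6.01). Adcy2, an adenylyl cyclase, which makes cyclic AMP, was at 13.8, 2.68 and 12.7 CPM, 5.15-fold lower (2.94 to 9.64). Both cyclooxygenases and the cyclase were low in IWR1 only. Adcy6, a second cyclase chosen after its values were seen, was at 175 CPM in NT, 57.3 CPM in IWR1 and 212 CPM in Y27. Gad1, which makes the transmitter GABA, was at 11.3, 2.14 and 11.1 CPM, 5.28-fold lower (2.82 to 10.8). Aldh1a2, which makes retinoic acid in the mesoderm, was at 6.19, 1.25 and 6.45 CPM, 4.95-fold lower (2.17 to 13.2). It was the member of the retinoic acid list past 2-fold, and 11 of the 14 members compared were below NT, with a median of -0.31. Among them was the carrier Crabp1, with 6.19, 3.04 and 3.94 CPM.

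The lower genes with the most reads are varied in function. Fn1, fibronectin, the main adhesive glycoprotein of the early embryo's matrix, was at 1553 CPM in NT, 563 CPM in IWR1 and 1286 CPM in Y27, 2.76-fold lower (2.65 to 2.87). Igfbp3, a secreted binding protein that holds insulin-like growth factors, was at 1453, 546 and 1107 CPM, 2.66-fold lower (2.55 to 2.78). Slc2a3, a glucose transporter, was at 2389, 1045 and 1642 CPM, 2.28-fold lower (2.22 to 2.36). For these genes the Y27 library lay between NT and IWR1. Fst, which encodes the activin antagonist follistatin, was at 536 CPM in NT, 265 CPM in IWR1 and 667 CPM in Y27, and Ccn1, a matrix protein induced by YAP and SRF, at 506, 241 and 316 CPM. Amotl2, whose promoter is shown above and whose protein restrains YAP, was at 741, 298 and 595 CPM, 2.49-fold lower (2.35 to 2.64). Fst and Amotl2 were thus lowest in IWR1, and Ccn1 was low in both treated libraries. Fbln2, a fibulin of elastic matrix, was at 24.1, 8.22 and 22.2 CPM, 2.93-fold lower (2.08 to 4.18).

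Collagens were below NT in 20 of 24 genes compared, with a median of -0.33, although 1 member was past 2-fold: Col27a1, a fibrillar collagen, was at 27.8 CPM in NT, 12.7 CPM in IWR1 and 47.5 CPM in Y27. Col27a1 was higher in Y27 than in NT, but the list's median in Y27 over NT, which shares the NT library, was -0.50. The other matrix lists were spread to both sides. Of 38 laminins, proteoglycans and matrix glycoproteins, 2 (5.26%, against 2.28% of all genes compared) were at least 2-fold higher. Another 3 (7.89%, against 2.25%) were at least 2-fold lower, and the list's median was -0.06. Matrix remodelling enzymes had 1 of 47 (2.13%) higher and 0 lower. Among adhesion molecules, the protocadherin Pcdh18 was at 47.2, 10.5 and 50.7 CPM, 4.48-fold lower (3.37 to 6.05), and Pcdh7 at 86.3, 40 and 107 CPM. Pcdh1 went the other way, at 45.6 CPM in NT, 106 CPM in IWR1 and 37.8 CPM in Y27, 2.33-fold higher (2.01 to 2.71). For these 3 protocadherins the NT and Y27 libraries lay together and IWR1 stood apart. The list had a median of -0.35 over 16 genes. Classical cadherins and catenins had no member past 2-fold, although N-cadherin (Cdh2), with 197, 116 and 202 CPM, and plakoglobin (Jup), with 275, 156 and 167 CPM, were below NT in IWR1.

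Other named lower genes act inside the cell. Ccno, an atypical cyclin needed by multiciliated cells, was at 70.1 CPM in NT, 11.6 CPM in IWR1 and 87.8 CPM in Y27, 6.03-fold lower (4.63 to 7.97). Grsf1, an RNA-binding protein of G-rich sequences with a form in mitochondria, was at 425, 110 and 500 CPM, 3.85-fold lower (3.52 to 4.21). Arl4d, a small GTPase at the plasma membrane, was at 59.8, 10.2 and 46.9 CPM, 5.87-fold lower (4.42 to 7.92). All 3 were low in IWR1 alone and rested on at least 57 reads there. Limch1, an actin-binding protein, was at 19.5 CPM in NT, 3.75 CPM in IWR1 and 36.7 CPM in Y27, 5.19-fold lower (3.23 to 8.71). Kif26b, an atypical kinesin of cell adhesion, was at 7.25, 1.07 and 5.56 CPM, 6.77-fold lower (2.86 to 19.5). Tgm1 was at 9.38, 1.25 and 2.51 CPM, 7.5-fold lower (3.4 to 19.5). Tgm1 differed from the rest of the lower genes named by size in that the Y27 library lay near IWR1.

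Transcription factor families were found on both sides, and their lists share members with those set aside. Of 29 T-box and homeobox genes compared, 5 (17.2%, against 2.25% of all genes compared) were at least 2-fold lower and 0 higher, with a median of -0.14. Of the 5, Nkx1-2, Gbx2 and Lhx1 reached 5 CPM in NT or IWR1, and the rest did not. Nkx1-2, of the caudal epiblast and set aside with the streak genes, had the largest difference of the 5, at 115 CPM in NT, 18.9 CPM in IWR1 and 167 CPM in Y27. Gbx2, of the hindbrain and posterior neural plate, was at 5.13 CPM in NT, 0.715 CPM in IWR1 and 6.45 CPM in Y27, 7.18-fold lower (2.52 to 28.1) on 4 reads in IWR1. Lhx1, of the node and anterior mesendoderm, was at 12.9, 4.47 and 12 CPM, 2.89-fold lower (1.81 to 4.75). Among 27 forkhead genes, 2 (7.41%, against 2.28% of all genes compared) were at least 2-fold higher and 4 (14.8%, against 2.25%) lower. The 2 higher genes were Foxd3, set aside with the pluripotency genes, at 7.96, 53.1 and 13.6 CPM, and Foxj1. Of the 4 lower genes, the one with the lowest log2 difference, -1.95, was below 5 CPM in both NT and IWR1. Foxb1, of the caudal neural tube and mesoderm, was at 10.4 CPM in NT, 2.14 CPM in IWR1 and 11.6 CPM in Y27, and Foxo4, which insulin signalling keeps out of the nucleus, at 290, 129 and 259 CPM, 2.25-fold lower (2.06 to 2.46). Foxj1, the regulator of motile cilia, was at 5.31, 12 and 7.17 CPM, 2.26-fold higher (1.45 to 3.59). The Sox factors compared had 7 of 8 members above NT and none past 2-fold, with a median of 0.42. Sox13 was at 40.3, 69.3 and 48.9 CPM, 1.72-fold higher (1.46 to 2.03).

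The noncoding gene Evx1os, which lies next to the homeobox gene Evx1 on the other strand, had the largest log2(CPM + 1) difference as measured, -2.65, among the lower genes named by size, although the CPM ratios of Msx1os and Ptgs2 were larger. It was at 23.2 CPM in NT, 2.86 CPM in IWR1 and 27.2 CPM in Y27, 8.11-fold lower (4.81 to 14.6). Msx1os, the antisense partner of Msx1, was at 6.72, 0.715 and 4.3 CPM on 4 reads in IWR1, 9.41-fold lower (3.39 to 36.3). The sources used here do not give whether the counting used the strand, so reads of these genes and of Evx1 and Msx1 cannot be told apart.

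**Figure D2:**
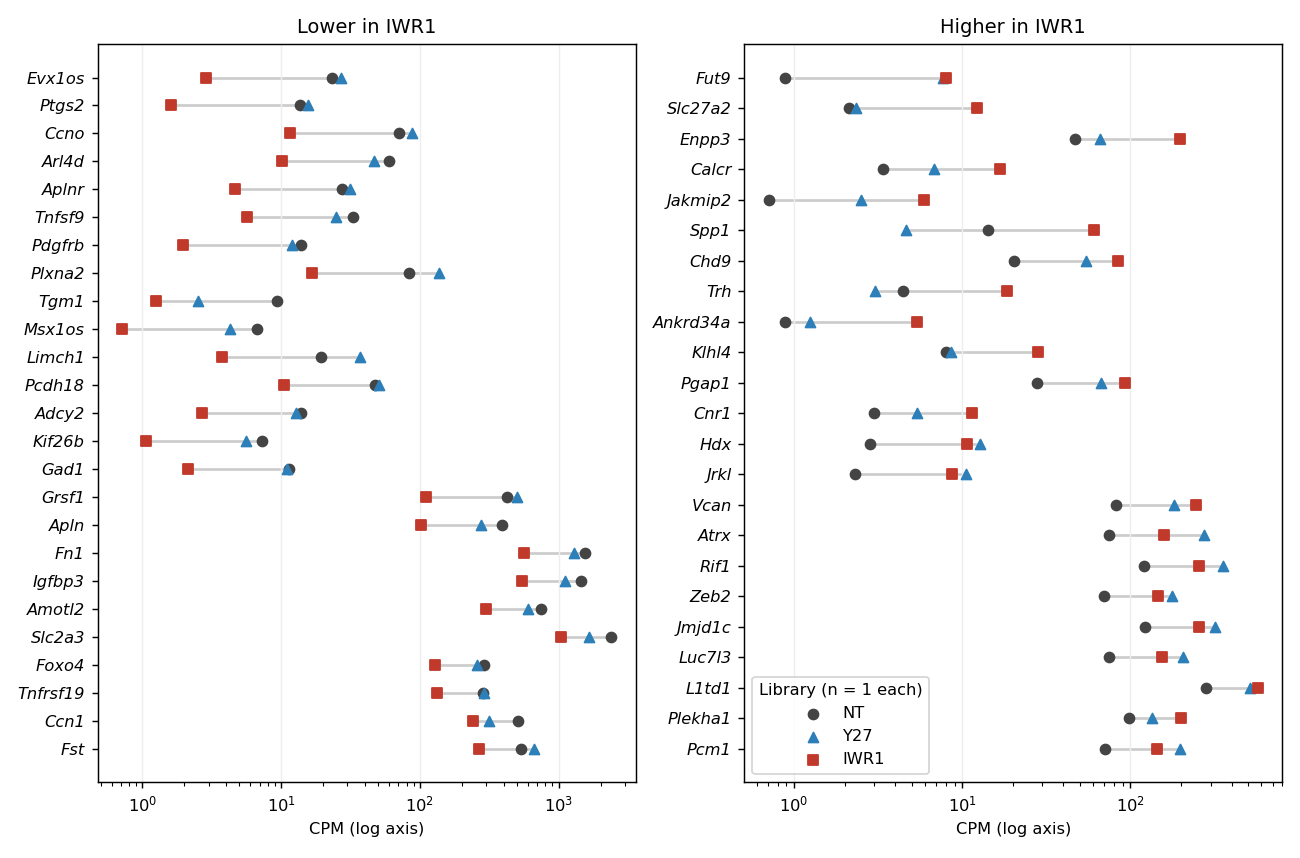
Levels in the NT (circles), Y27 (triangles) and IWR1 (squares) libraries, 1 library each, of the genes named by size or by level, on a log axis of CPM; genes lower in IWR1 are on the left and genes higher on the right. On the left the Y27 library lies nearer to NT than to IWR1 for most genes, Tgm1 and Ccn1 excepted, whereas on the right Y27 lies near NT for Slc27a2, Klhl4 and Ankrd34a and past IWR1 for Atrx, Rif1 and Pcm1.

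The higher genes are given by where the Y27 library lay. In a first set of them, Y27 was near or below NT. Enpp3, an enzyme at the cell surface that cleaves nucleotides, was at 46.9 CPM in NT, 196 CPM in IWR1 and 66.1 CPM in Y27, 4.18-fold higher (3.65 to 4.79). Spp1, osteopontin, a secreted ligand of integrins, was at 14.3, 60.7 and 4.66 CPM, 4.24-fold higher (3.32 to 5.47). Slc27a2, which activates very long chain fatty acids, was at 2.12, 12.3 and 2.33 CPM, 5.81-fold higher (3.12 to 11.8). For these genes IWR1 was the high library, and Spp1 was lower in Y27 than in NT. Trh, the precursor of thyrotropin-releasing hormone, was at 4.42 CPM in NT, 18.4 CPM in IWR1 and 3.05 CPM in Y27, 4.16-fold higher (2.67 to 6.72). Klhl4, of the kelch family of ubiquitin ligase adaptors, was at 7.96, 28.2 and 8.6 CPM, 3.55-fold higher (2.53 to 5.05). Ankrd34a was at 0.885, 5.36 and 1.25 CPM on 5 reads in NT. The log2 differences of these 6 genes were between 1.20 and 2.18 after removal of the length and GC trend.

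Receptors and matrix genes were among the higher genes with a middle level in Y27. Calcr, the calcitonin receptor, was at 3.36 CPM in NT, 16.8 CPM in IWR1 and 6.81 CPM in Y27, 5-fold higher (3.03 to 8.66). Cnr1, a cannabinoid receptor, was at 3.01, 11.4 and 5.38 CPM, 3.8-fold higher (2.2 to 6.92). Vcan, the matrix proteoglycan versican, was at 82.4, 245 and 181 CPM, 2.97-fold higher (2.67 to 3.31). In each of them IWR1 was highest and NT lowest. Chd9, a chromodomain remodeller, was at 20.3 CPM in NT, 84.5 CPM in IWR1 and 54.1 CPM in Y27, 4.15-fold higher (3.38 to 5.14). Jakmip2 was at 0.708, 5.9 and 2.51 CPM on 4 reads in NT, and Pgap1, which remodels GPI anchors, at 27.8, 92.7 and 67.2 CPM. L1td1, an RNA-binding protein of pluripotent cells derived from a LINE-1 element, was at 281, 573 and 516 CPM, and Plekha1, which binds phosphoinositides, at 98.4, 200 and 134 CPM. After removal of the length and GC trend, the log2 differences of Pgap1, L1td1 and Plekha1 lay inside the threshold, going from 1.70 to 0.90, from 1.03 to 0.97 and from 1.02 to 0.83.

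In a last set, Y27 was as high as IWR1 or higher, and the transcripts were long or poor in GC. Rif1, a factor of replication timing and DNA repair, was at 121 CPM in NT, 257 CPM in IWR1 and 354 CPM in Y27, with a log2 difference of 1.08 that became 0.35 once the trend was removed. Atrx, a chromatin remodeller, was at 74.5, 158 and 272 CPM, with 1.08 and 0.30. Pcm1, of centriolar satellites, was at 70.4, 143 and 198 CPM, with 1.01 and 0.43. In these genes NT was the low library and Y27 the high one; as there is 1 NT library, a low NT value cannot be told apart from higher values in both treated libraries. Jmjd1c, a member of the histone demethylase family, Zeb2, a transcription factor of epithelial-mesenchymal transition, and Luc7l3, a splicing factor, had the same order of libraries, with differences of 0.59, 0.41 and 0.70 after removal. Fut9, the fucosyltransferase that makes the surface antigen SSEA-1, was at 0.885 CPM in NT, 8.04 CPM in IWR1 and 7.71 CPM in Y27 on 5 reads in NT. Its log2 difference of 2.26 became 1.03 after removal. Hdx, a homeobox gene, was at 2.83, 10.7 and 12.7 CPM, and Jrkl at 2.3, 8.75 and 10.6 CPM. After removal Hdx was at a log2 difference of 1.02 and Jrkl, from 1.56, at 0.90, inside the threshold.

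Length and GC content were followed over all genes. In the 1285 transcripts poorest in GC (31% to 41.4%), the median log2 difference was 0.45, 8.33% were at least 2-fold higher and 0.778% lower. In the decile richest in GC (58.1% to 82.9%), the median was -0.16, 1.09% were at least 2-fold higher and 3.74% lower. The median thus declined from decile to decile as GC content grew. By length, the shortest decile (up to 1189 bases) had a median of -0.15 and the longest (from 6190 bases) one of 0.22, with 4.55% of genes at least 2-fold higher in the longest. Across genes, which are not independent replicates, Spearman's rho of the difference was 0.26 with length and -0.42 with GC content (n = 12847), and -0.05 with level. Length and GC content were themselves related with rho of -0.16. Neither trend came from the other alone: rho with length was 0.14 to 0.32 within 5 equal bins of GC content, and rho with GC content was -0.30 to -0.51 within 5 bins of length. In the bin of lowest GC content and greatest length, the median was 0.56 and 8.9% of 629 genes were at least 2-fold higher, against a median of -0.22 in the bin of highest GC content and least length. Within 5 bins of level, the trends were weakest in the lowest bin, with rho of 0.11 with length and -0.21 with GC content.

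**Figure D3:**
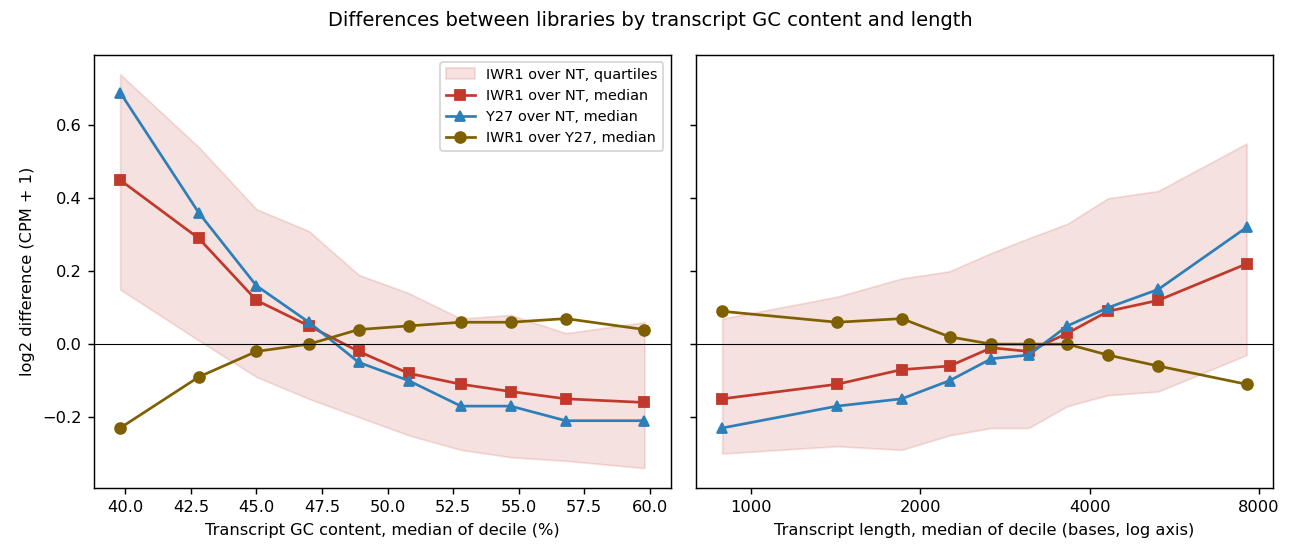
Median log2 difference by decile of transcript GC content (left, %) and of length (right, bases on a log axis) for IWR1 over NT (squares, with quartiles shaded), Y27 over NT (triangles) and IWR1 over Y27 (circles). The first 2 share the NT library; the IWR1 over NT median falls from 0.45 in the decile poorest in GC to -0.16 in the richest, and grows from -0.15 in the shortest decile to 0.22 in the longest.

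The same trends were larger in the Y27 library, which shares NT with this comparison: rho of Y27 over NT was 0.34 with length and -0.49 with GC content. Between the treated libraries, IWR1 over Y27, they were smaller and of opposite sign, at -0.16 and 0.20. The order from low to high level of long, GC-poor transcripts was therefore NT, IWR1, Y27. The 2-fold higher genes had a median transcript length of 3660 bases and a median GC content of 43.3%, the lower genes 2790 bases and 53.3%, and all genes 2887 bases and 49.8%. Of the higher genes, 225 lay below the median GC content. Their median levels were 5.31 CPM in NT, 14.6 CPM in IWR1 and 12.9 CPM in Y27. The 63 higher genes at or above that median were at 1.95, 6.43 and 3.05 CPM, so that in them the Y27 library was nearer to NT. The lower genes had median levels of 9.73 CPM in NT, 2.86 CPM in IWR1 and 9.16 CPM in Y27. The source of the trend was not tested.

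Several functional groups followed the trend. Genes of cohesin, condensin and chromosome structure, which hold and compact chromosomes, had a median of 0.67 with 22 of 25 members above NT and 0 past 2-fold, and their transcripts had a median GC content of 42.2%. Smc3, a cohesin core subunit, was at 95.4 CPM in NT, 175 CPM in IWR1 and 250 CPM in Y27. The list's median became 0.13 after removal of the trend, and in Y27 over NT, which shares the NT library, it was 1.03. Zinc finger genes had 25 of 324 members (7.72%, against 2.28% of all genes compared) at least 2-fold higher and 2 lower, with a median of 0.26. After removal 7 members were higher and 4 lower by that measure, and the median became 0.06. Among members with whole counts in NT and IWR1, the median was 0.10 as measured. Zfp703, a repressor, was the named exception at 74.3, 24.3 and 54.1 CPM, 3.06-fold lower (2.51 to 3.74). Cilium and centrosome genes had 4 of 74 members (5.41%, against 2.28% of all genes compared) at least 2-fold higher and a median of 0.25. After removal these became 0 members and 0.13. SR proteins and hnRNPs, which act in splicing, had a median of 0.20 that became 0.07.

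Short transcripts lay on the other side of the trend. Of 81 cytosolic ribosomal protein genes compared, 73 were below NT, with a median of -0.18 that became -0.07 after removal and a median length of 701 bases. Oxidative phosphorylation genes were below NT in 66 of 77 cases, with a median of -0.18 that became -0.08 and a median length of 651 bases. Genes of the mitochondrial ribosome had a median of -0.15 and then -0.09. None of these 3 lists had a member past 2-fold in either direction. Genes of ribosome biogenesis, which assemble ribosomes in the nucleolus, did not share that pattern: 24 of 32 were above NT, with a median of 0.12 before removal and 0.14 after. Wdr43, of the small subunit processome, was at 139 CPM in NT, 251 CPM in IWR1 and 205 CPM in Y27, 1.81-fold higher (1.66 to 1.98), and Gnl3, nucleostemin, at 101, 171 and 147 CPM.

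Long noncoding RNAs, many of them retained in the nucleus, had 5 of 21 members (23.8%, against 2.28% of all genes compared) at least 2-fold higher. Of the 21, 20 were above NT, against 49.7% of all genes compared. The list's median of 0.73 remained at 0.56 after removal of the trend. Neat1, the scaffold of paraspeckles, was at 21.9 CPM in NT, 47.2 CPM in IWR1 and 51.8 CPM in Y27, and Malat1, of nuclear speckles, at 264, 628 and 857 CPM on partly fractional counts. Gas5, a host of small nucleolar RNAs, was at 39.8, 78.8 and 76.5 CPM. All 3 were high in both treated libraries. After removal 1 member was past 2-fold. Kcnq1ot1, an imprinted noncoding RNA listed at 83437 bases, lies at the edge of the fitted surface: its log2 difference of 0.91 turned to -0.55, on partly fractional counts.

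**Figure D4:**
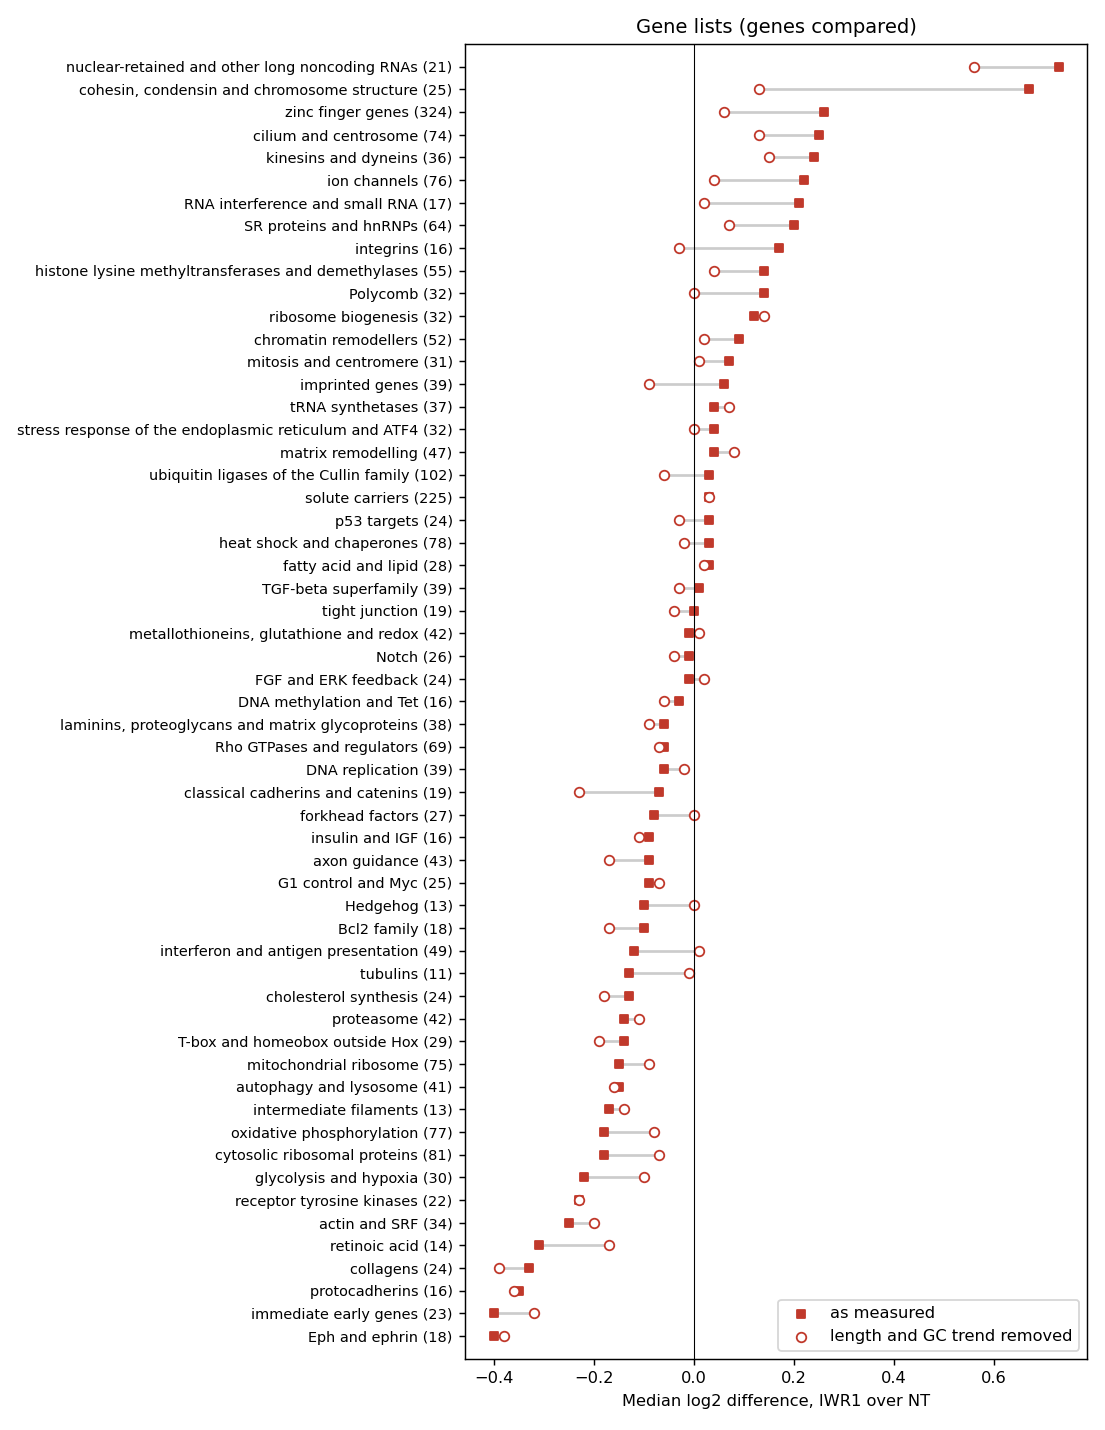
Median log2 difference, IWR1 over NT, of functional gene lists with at least 10 genes compared (number in brackets), as measured (filled squares) and after removal of the length and GC trend (open circles). The cohesin and condensin list moves from 0.67 to 0.13, the Eph and ephrin list stays near -0.40, and most lists lie within 0.25 of 0.

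Other signalling pathways had few members past 2-fold. Notch signalling had 0 of 26 genes past 2-fold and a median of -0.01. Its target Hes1 was at 60.5 CPM in NT, 38.6 CPM in IWR1 and 44.1 CPM in Y27, 1.57-fold lower (1.32 to 1.87), and Hey1 at 3.89, 5.54 and 4.48 CPM. Hedgehog signalling had 0 of 13 genes past the threshold and a median of -0.10, with members on both sides. Ptch1, a receptor that the pathway itself induces, was at 106, 189 and 93.7 CPM, 1.78-fold higher (1.61 to 1.97), and Gas1, a co-receptor, at 29.7, 14.6 and 38.3 CPM, 2.03-fold lower (1.55 to 2.68). For both genes NT and Y27 lay nearer to each other than to IWR1. In FGF signalling, 1 of 24 genes (4.17%, against 2.28% of all genes compared) was at least 2-fold higher and 2 (8.33%, against 2.25%) lower. Fgf15 was at 3.18 CPM in NT, 9.11 CPM in IWR1 and 4.84 CPM in Y27, and the phosphatase Dusp4, a feedback inhibitor of ERK, at 141, 63.4 and 120 CPM, 2.22-fold lower (1.95 to 2.52). Dusp14, another phosphatase, was at 26.5, 10.4 and 8.96 CPM, low in both treated libraries.

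In the transforming growth factor beta superfamily, 1 of 39 genes (2.56%, against 2.28% of all genes compared) was at least 2-fold higher. The 2 lower by that measure made up 5.13%, against 2.25%, and the median was 0.01. Cer1, whose secreted product binds and blocks Nodal and BMP ligands, was without counts in NT. It was at 7.55 CPM in IWR1 and 0.557 CPM in Y27. Set against 3 counts in NT, it was at least 14.2-fold higher, on partly fractional counts. Chrd, which encodes the BMP antagonist chordin, was at 4.25, 9.29 and 4.84 CPM, 2.19-fold higher (1.32 to 3.71). Bmp8a, a ligand, was at 5.48, 1.25 and 4.83 CPM, 4.39-fold lower (1.89 to 11.8). The 2 antagonists Cer1 and Chrd were thus higher in IWR1, while the antagonist Fst, given above, was lower. Among binding proteins and transducers of insulin-like growth factors, Irs1 was at 60.2 CPM in NT, 35.5 CPM in IWR1 and 68.6 CPM in Y27, and Igfbp2 at 423, 295 and 289 CPM.

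Immediate early genes, which respond to serum and stress within minutes, had a median of -0.40 over 23 genes, with 16 below NT. Of the 23, 2 (8.7%, against 2.25% of all genes compared) were at least 2-fold lower. Dusp1 was at 98.9 CPM in NT, 43.4 CPM in IWR1 and 42.3 CPM in Y27, 2.28-fold lower (1.96 to 2.66), and Egr3 at 7.78, 3.57 and 3.58 CPM. These genes were low in both treated libraries. Actin and SRF target genes had 28 of 34 members below NT, 0 past 2-fold and a median of -0.25. Tpm1, a tropomyosin, was at 1454, 968 and 887 CPM, 1.5-fold lower (1.45 to 1.55). Intermediate filament genes had 2 of 13 members (15.4%, against 2.25% of all genes compared) at least 2-fold lower. Krt19 was at 118, 55 and 37.1 CPM and vimentin (Vim), the filament of mesenchymal cells, at 1564, 882 and 813 CPM, 1.77-fold lower (1.71 to 1.84). For both filament genes the Y27 library was the lowest.

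The cell cycle, stress and metabolic lists lay near the whole. DNA replication genes had 0 of 39 past 2-fold and a median of -0.06, and heat shock genes and chaperones 0 of 78 higher, 1 lower and a median of 0.03. Mycn was at 197 CPM in NT, 328 CPM in IWR1 and 181 CPM in Y27, 1.66-fold higher (1.54 to 1.79), while Mycl was at 159, 82.7 and 130 CPM, 1.92-fold lower (1.71 to 2.15). Mycn and Mycl, named for their large differences within the list, thus differed in opposite directions, each with IWR1 apart from the other libraries. Glycolysis and hypoxia genes were below NT in 22 of 30 cases, with a median of -0.22 that became -0.10 after removal of the trend. Chac1, which degrades glutathione and is induced by ATF4, was at 22.1, 47.9 and 10.9 CPM, 2.16-fold higher (1.74 to 2.7), although the stress list it belongs to had a median of 0.04 over 32 genes. Among epigenetic regulators, Gadd45b, a stress-induced gene linked to demethylation, was at 16.1, 5.54 and 6.63 CPM, 2.91-fold lower (1.91 to 4.52). Tet1, of the same list, was at 66.9, 150 and 142 CPM, 2.25-fold higher (1.99 to 2.55) on partly fractional counts. The log2 difference of Tet1, 1.16, became 0.60 after removal of the trend. The Polycomb list had 0 of 32 members past 2-fold, with Phc1 at 390, 656 and 482 CPM, 1.68-fold higher (1.59 to 1.77).

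Markers of other cell types were followed because a change in the make-up of the culture would move them. Fibroblast markers summed to 466 CPM in NT, 366 CPM in IWR1 and 222 CPM in Y27 over 13 of 14 genes found, with 2 at 0 in NT and 3 in IWR1, Fap in both (markers found in no library are counted among those at 0, here and below). Pdgfrb was the member past 2-fold, and Col1a1 was at 82.3, 54.7 and 31 CPM. Extraembryonic endoderm markers summed to 1795, 1412 and 1488 CPM over 13 of 17 genes found, with 5 at 0 in each of NT and IWR1. All 10 members compared were below NT. Sparc, at 833, 727 and 572 CPM, is also made by many other cells. Trophoblast markers summed to 253, 135 and 136 CPM over 10 of 14 genes found, 5 at 0 in NT and 4 in IWR1, with Esx1 at 0 in NT. The equal sums of the treated libraries hide members that differ: Cdx2, also a gene of the posterior embryo, was at 48.3, 2.5 and 68.8 CPM, and Krt8 at 119, 75.4 and 23.8 CPM. Neural progenitor markers summed to 486, 560 and 492 CPM over 20 of 23 genes found, 8 at 0 in NT and 4 in IWR1, with Pax6 at 0 in both. Neuron markers summed to 407, 385 and 295 CPM over 16 of 17 genes found, 4 at 0 in NT and 3 in IWR1, with Neurog1 at 0 in both. Cardiac, presomitic, definitive endoderm, blood and endothelium, neural crest and germ cell markers each summed to between 35.6 and 119 CPM in NT and IWR1 and had between 3 and 7 members at 0, with Tbx5 (heart) and Pax7 (neural crest) at 0 in both. Presomitic markers summed to 64.4 CPM in NT, 35.6 CPM in IWR1 and 70.7 CPM in Y27, with Msgn1 at 19.1, 0.179 and 25.1 CPM. Definitive endoderm markers, among them Cer1 and Trh given above, summed to 35.9, 53.6 and 29.5 CPM. Gsc, of the same list, was at 6.9, 3.75 and 3.94 CPM. The sums of the cardiac, blood and endothelium, neural crest and germ cell lists were lower in IWR1 than in NT. Whether these levels play a part in the differences of Fn1, the collagens and Vim was not tested.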

How the data were processed

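RNA-seq tables of 3 libraries of mouse EpiSCs were used, with groups from the labels. The deposited expected counts are estimates of each gene's reads without normalization; between 80.3% and 81.2% of the values were whole (within 0.01). The deposited FPKM values (counts per transcript length and library sum) could be recomputed within 2% for 94% to 94.2% of genes with at least 50 counts. The submitters' processing notes name Bowtie 0.12.2 and mm8; the counting tool and its use of strand are not given in the sources used here. A gene absent from a table counted as 0. Of 17209 Entrez identifiers, 17160 (99.7%) matched a symbol in the RefSeq table (GRCm38.p6). GC content, from the longest GENCODE M21 (GRCm38) transcript, was found for 99.2% of the genes compared; the files' build differs, so coordinates are given only for RefSeq promoters.

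CPM values were computed with TMM factors (edgeR 4.0.16 in R 4.3.3: 0.98 for NT, 0.998 for IWR1 and 1.02 for Y27), filtered at a mean of 1 CPM over the 3 libraries and compared on log2(CPM + 1) with a 2-fold threshold. For fold intervals the expected counts were rounded. A gene at 0 was set against a floor of 3 counts, 0.531 CPM in NT and 0.536 CPM in IWR1. A surface cubic in GC content and log2 length was fitted and subtracted to remove the trend. No test between groups was possible with 1 library each. Per direction, the genes named were the 15 with the largest differences and the 10 most abundant past 2-fold, with whole counts and a higher library of at least 5 CPM and 30 reads, off the Wnt, streak, Hox and pluripotency lists, and up to 4 members of each of 59 functional and 11 cell type lists; gene models without an approved symbol were left out. The genes and lists were chosen with earlier results of these data known. The other settings tried were other pseudocounts, scalings (library total, upper quartile, DESeq2 1.42.0 size factors), level filters and thresholds, whole counts, the trend removal and the deposited FPKM values. The steps were tested on simulated data. The rest was done in Python 3.11.15 (scipy 1.17.1, numpy 2.4.6, pandas 2.3.3; figures with matplotlib 3.10.9).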

Additional observations from a re-analysis of the deposited data

How the results depend on the processing

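The numbers of genes past the threshold moved with the threshold itself and with the treatment of low genes. In place of 295 higher and 292 lower genes, there were 543 and 463 with a pseudocount of 0.1 CPM, 80 and 98 with one of 5 CPM, and 185 and 183 at a mean of at least 5 CPM. The deposited FPKM values with a pseudocount of 1 FPKM gave 135 and 176, a threshold of 1.5-fold 1404 and 825, and one of 3-fold 43 and 79. The higher genes numbered 184 among genes with whole counts and 155 with the trend removed. Other scalings left both numbers within 1.5 times, and moved the median of all genes to between -0.044 and 0.021. The rho with length was 0.20 and that with GC content -0.34 with no filter on level, and the latter was -0.47 at a mean of at least 5 CPM. Of the list medians under other settings, 755 stayed within the middle counting interval of the list's members. That interval reflects the counting error of single genes, so medians within it could still shift. With whole counts only, protocadherins went from -0.35 to -0.08, zinc finger genes from 0.26 to 0.10 and Hedgehog genes from -0.10 to 0.09. The retinoic acid median went from -0.31 to -0.07 at a mean of at least 5 CPM. Several medians near 0 changed sign under other scalings. Removal of the trend moved tubulins to -0.01, cytosolic ribosomal proteins to -0.07 and the cohesin and condensin list to 0.13. The definitive endoderm median of 0.41 reversed to -0.15 with no filter on level. The cause of these shifts was not tested, save that removal of the trend takes out what follows length and GC content. Values of the named genes under other settings stayed within the gene's counting interval in 2950 cases and moved beyond it in 187. No paired analysis was possible because each group had 1 library and the labels give no replicate numbers.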

Other observations

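By class of gene, 426 long noncoding RNA genes had a median log2 difference of 0.18, and 0.17 with the length and GC trend removed. Of the 426, 25 were at least 2-fold higher and 10 lower, against 295 (2.28%) and 292 (2.25%) of all 12955 genes compared. The 12362 protein-coding genes had a median of -0.01, with 260 higher and 267 lower. Counts were whole for 57.7% of the noncoding and 80.6% of the protein-coding genes, so the noncoding values are less certain.

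The listed transcript length, which shifts when the estimated share of a gene's transcripts shifts, offers a view of transcript use. Among 7608 genes with at least 100 counts in both libraries, 2368 had several transcripts by this measure. The listed length was at least 10% longer in IWR1 for 23 and at least 10% shorter for 11. Of the genes named here, chosen after their values were seen, Nadk2, a mitochondrial NAD kinase, was listed at 2343 bases in NT, 2948 bases in IWR1 and 2850 bases in Y27. Map3k9, a kinase upstream of JNK, was listed at 6828, 8270 and 8118 bases. Pigv, of GPI anchor synthesis, was listed at 2561, 2221 and 2375 bases. In these 3 genes the Y27 library lay on the same side of NT as IWR1, which did not hold for all genes with a shifted length. Mrpl15 was listed at 2838, 3164 and 2824 bases, with Y27 on the other side of NT. Zkscan8, at 5026, 6167 and 5094 bases, had Y27 near NT. The deposited lengths carry no error, so these are values with no interval.

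Zic5, a zinc finger factor of the anterior neural plate, was at 15.2 CPM in NT, 30.9 CPM in IWR1 and 20.2 CPM in Y27, and Ngfr, a neurotrophin receptor of the neural crest, at 11.4, 4.42 and 4.25 CPM on partly fractional counts. Magel2, an imprinted gene, was at 14.5, 34.7 and 20.8 CPM, 2.39-fold higher (1.84 to 3.13). H2-Q6 and H2-Q8, related histocompatibility genes with partly fractional counts, stood at 0.64 and 8.1 CPM in NT. In IWR1 the first had 6.78 CPM and the second fewer than 3 counts, so both differences are uncertain.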
